A study of Mus musculus with 4 samples.

Results

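Lysosomal proteases, membrane proteins, proton pump subunits and autophagy genes were followed through 4 spatial transcriptomes of the caerulein-injured mouse pancreas. The 47 genes were chosen by name, as cathepsins and other lysosomal proteins together with the core autophagy genes, and not by a cut on measured values. Earlier results of these data were known when the genes were chosen. All 47 were present among the 32285 genes counted and had UMIs (unique molecular identifiers, each counting 1 captured molecule). Formalin-fixed, paraffin-embedded sections were hybridized with gene-specific probe pairs, which the CytAssist Visium workflow transfers to a slide of barcoded spots. Each spot covers a small region that can hold several cells of different types. The 4 sections came from C57Bl/6 mice of 4 weeks of age. Each was treated as a separate mouse, although the replicate numbers do not name the animals. All the mice carried *Pdx1-Cre*, which drives recombination in the epithelial lineage of the pancreas and not in its fibroblasts or leukocytes. Both groups received caerulein, a cholecystokinin analogue that causes acute pancreatitis, as 8 hourly intraperitoneal injections of 50 μg/kg after a 12 h fast, and tissue was collected 18 h after the first of them. The groups were 2 sections labelled as *Pdx1-Cre* wild type (*Ehmt2+/+*) and 2 labelled as knockout (*Ehmt2fl/fl*), in which the floxed alleles of the histone methyltransferase gene *Ehmt2* are removed where Cre is active. There were no uninjected sections, so every value below describes injured tissue, and p-values measure the spread between these sections.

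The lysosome is the acidic organelle in which cathepsins and other hydrolases degrade proteins, lipids and glycans, and autophagy is the route by which a double membrane encloses cytoplasm or organelles and delivers them to it. In the acinar cell these routes meet the digestive zymogens. Cathepsin B (*Ctsb*) can cut trypsinogen to active trypsin, cathepsin L (*Ctsl*) degrades trypsinogen and trypsin, and cathepsin D (*Ctsd*) can activate cathepsin B. In experimental pancreatitis, zymogens and lysosomal hydrolases come to lie in the same vacuoles, and autophagic flux is known to be disturbed.

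Values are given in the order *Ehmt2+/+* replicate 1, *Ehmt2+/+* replicate 2, *Ehmt2fl/fl* replicate 1, *Ehmt2fl/fl* replicate 2 wherever 4 are listed. Spots with at least 500 UMIs were used, 6144, 7871, 6483 and 6462 of them, and the median spot held 6327.5, 874, 981 and 1113 UMIs. The section labelled *Ehmt2+/+* replicate 1 was thus the deepest by far. Genes of digestive enzymes accounted for 65.1%, 54.4%, 22.8% and 22.1% of all counts, and olfactory receptor genes, which have no known use in the pancreas, had a median of 0.251, 4.97, 8.13 and 12.6 UMIs per 1000000 UMIs of the section (CPM). *Ehmt2* itself had 865, 31, 67 and 96 UMIs, within the range of the olfactory receptor genes in the last 3 sections, so it does not check the labels, and the sections are called by their labels throughout. The 4 Y-linked genes *Ddx3y*, *Eif2s3y*, *Uty* and *Kdm5d* had 2 and 0 UMIs in all in the *Ehmt2+/+* sections and 4.97 to 17.5 CPM each in the *Ehmt2fl/fl* sections. These *Ehmt2fl/fl* levels lay below the 99th percentile of the olfactory receptor genes there, 20.0 and 26.6 CPM. *Xist* had 0 UMIs in each section and gives no reading of sex. Sex and genotype therefore cannot be told apart here. The same 13898 spot barcodes occurred in all 4 sections, since the barcodes are those of the slide and not of cells.

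Because *Tfeb* and *Tfe3*, the transcription factors that drive lysosome and autophagy genes, recognise E-box letters, the RefSeq promoter windows (250 bases before to 50 after the transcript start, GRCm38.p6) were searched for CACGTG, which reads alike on both strands. A window was found for 37 members. At least 1 CACGTG lay in the window of 12 of these, or 32.4%, against 8.09% of 27025 genes with a window, and the longer TCACGTGA, which contains it, lay in 5 members, or 13.5%, against 1.12% of all. The same 8 letters with G before and C after them lay in 0 of the 37 windows and in 0.370% of all genes. Lysosomal genes supplied 10 of the 12 (*Ctsa*, *Ctsd*, *Ctsl*, *Lgmn*, *Gaa*, *Glb1*, *Lamp1*, *Mcoln1*, *Atp6v0d1* and *Atp6v1a*) and autophagosome genes the other 2 (*Atg5* and *Atg7*). No window was found for *Ctsb*, so it could not be searched, and the window of *Ctss* held no CACGTG. The stretches below are those of *Ctsl*, of *Ctsd* and of the 2 lysosomal membrane genes with the most matches. They are given upstream of the start only, 5′ to 3′ on the strand of the gene, with CACGTG in capitals. The *Ctsl* stretch is chr13:64370734-64370770, minus strand. Those of *Ctsd* are chr7:142388050-142388077, minus strand (distal) and chr7:142387903-142387942, minus strand (proximal). The *Lamp1* stretch is chr8:13159083-13159160, plus strand, and that of *Mcoln1* is chr8:3500431-3500496, plus strand.
Ctsl: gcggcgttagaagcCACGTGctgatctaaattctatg
Ctsd, distal: tccccCACGTGacctgtatccagtcatt
Ctsd, proximal: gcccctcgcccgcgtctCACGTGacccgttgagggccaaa
Lamp1: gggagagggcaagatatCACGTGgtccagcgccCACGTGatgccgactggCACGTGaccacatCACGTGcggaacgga
Mcoln1: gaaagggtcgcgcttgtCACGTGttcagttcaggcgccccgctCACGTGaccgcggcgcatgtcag
*Lamp1*, a main glycoprotein of the lysosomal membrane, held 4 matches within the last 61 bases before its start, and *Mcoln1*, the lysosomal calcium channel, held 2. *Ctsd* held 2 matches, and the one match of *Ctsl* lay 236 bases before the start. A match is a description of these letters and not a site of binding.

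Most members stood well above the counts of olfactory receptor genes. In all 4 sections, 31 of 47 exceeded the 99th percentile of the olfactory receptor genes of the same section. A further 7 (*Atg12*, *Atg16l1*, *Ctsh*, *Gabarapl1*, *Hexa*, *Lamp2* and *Mcoln1*) did so in 3 sections and were near that level in the other. The remaining 9 (*Atg5*, *Atp6v1b2*, *Lipa*, *Optn*, *Tfe3* and *Tfeb* in 1 section, *Atp6v1h*, *Npc1* and *Wipi1* in 2) were at that level in the shallower sections, and their differences between genotypes have little signal behind them. To take out the digestive enzymes, whose share differed most between the genotypes, levels are given as UMIs per 1000000 UMIs of all other genes, called non-enzyme CPM below. A probe set differs from gene to gene, so levels are compared between sections and never between genes.

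**Figure D1:**
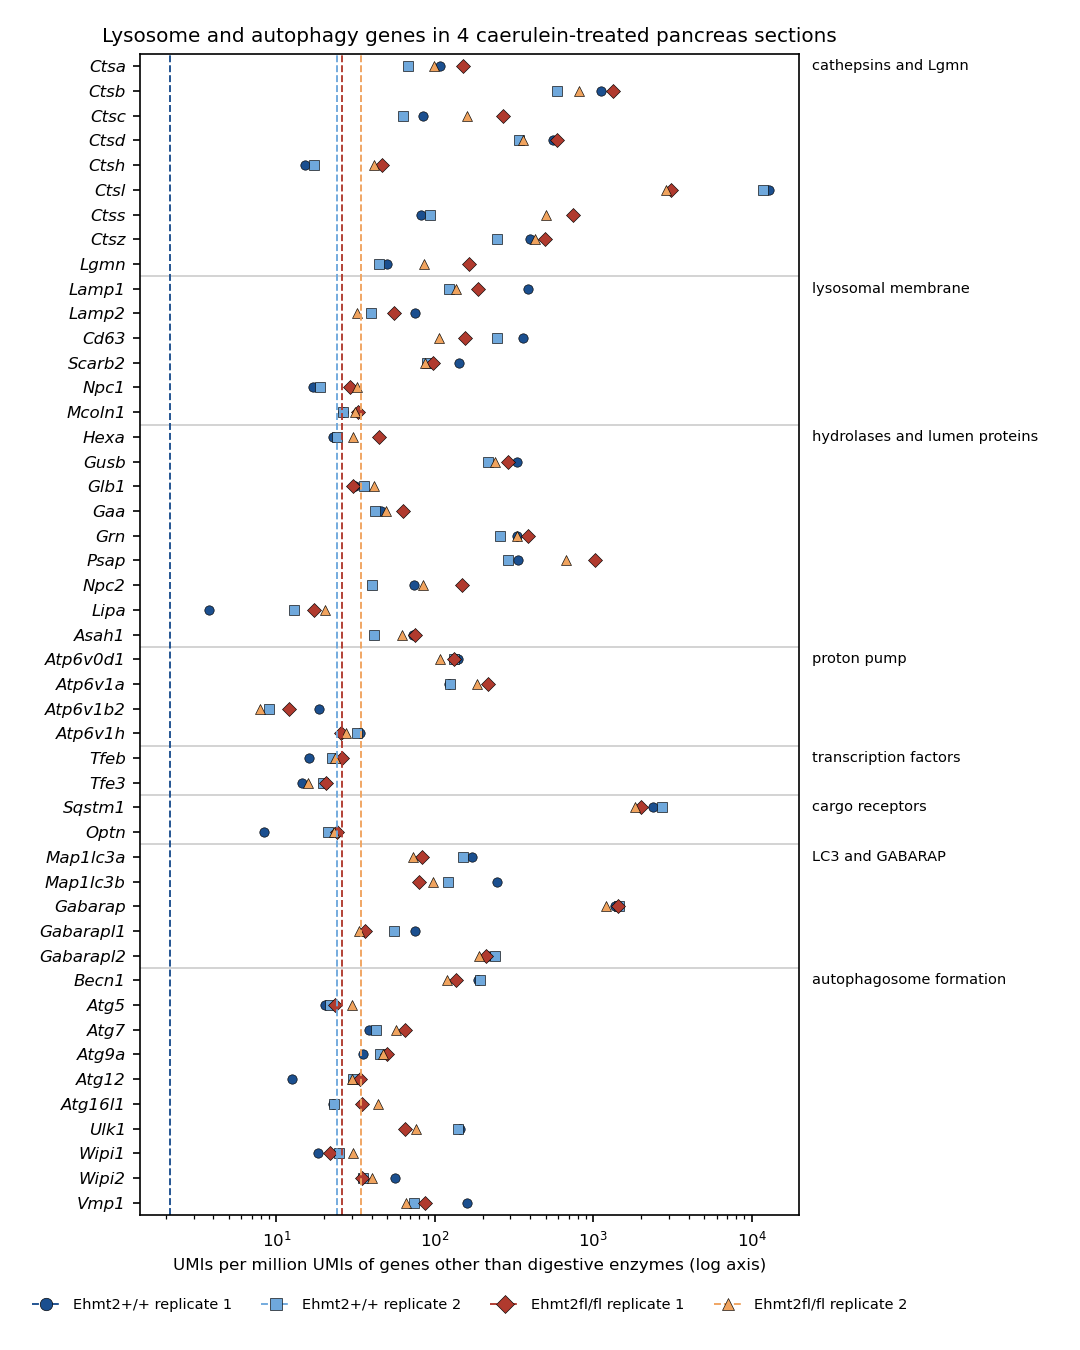
Non-enzyme CPM of each of the 47 members (log axis), which is UMIs per 1000000 UMIs of genes other than digestive enzymes, with 1 marker per section and members grouped by role. Dashed lines give the 99th percentile of olfactory receptor genes in the section of that colour. *Ctsl* lies to the left in both *Ehmt2fl/fl* sections and *Ctss* to the right, while *Ctsb* and *Ctsd* overlap between the genotypes.

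The first comparison asked how these genes differed between the injured pancreas of *Ehmt2fl/fl* and *Ehmt2+/+* mice. None of the 47 members passed the test across all genes, and the levels below are given as they were measured. The cathepsins differed among themselves in direction. *Ctsl* (ENSMUSG00000021477), the protease that degrades trypsinogen, had 12915, 11858, 3109 and 2865 non-enzyme CPM, 12387 ± 747 in *Ehmt2+/+* and 2987 ± 172 in *Ehmt2fl/fl* (SD, n = 2). Both *Ehmt2fl/fl* sections were low, with a mean 4.15-fold below the *Ehmt2+/+* mean. *Ctss* (ENSMUSG00000038642), a cathepsin of macrophages and other antigen-presenting cells, ran the other way with 81.7, 93.7, 748 and 503 non-enzyme CPM, a 7.13-fold higher mean in *Ehmt2fl/fl*, without overlap. *Ctsb* (ENSMUSG00000021939), which can activate trypsinogen, had 1122, 590, 1331 and 815, and *Ctsd* (ENSMUSG00000007891), which can activate *Ctsb*, had 555, 338, 588 and 362. For both, each genotype had a high and a low section, and the groups overlapped.

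The shares of spots showed the same order. At least 1 UMI of *Ctss* was seen in 17.3%, 3.99%, 40.8% and 34.7% of spots, and 2.07%, 2.28%, 25.1% and 18.2% would be expected to hold one if each spot were thinned to 500 UMIs. For *Ctsl* the shares were 99.4%, 97.2%, 85.7% and 83.5%, or 88.6%, 91.6%, 67.2% and 62.2% when thinned. The thinned shares of *Ctss* lay far apart between the genotypes, and the thinned shares of *Ctsl* were lower in both *Ehmt2fl/fl* sections. The 500 UMIs included those of digestive enzymes, so the thinned shares follow CPM and not non-enzyme CPM. In CPM 91.5% of 20190 genes lay higher in both *Ehmt2fl/fl* sections and 0.703% lower. No olfactory receptor gene reached the CPM of either gene in any section.

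Of the other proteases, *Ctsc*, which activates granule proteases of leukocytes, had 84.2, 62.7, 271 and 160 non-enzyme CPM, *Ctsh* had 15.2, 17.3, 46.2 and 41.5, and legumain (*Lgmn*), the endopeptidase that processes several cathepsins, had 49.8, 44.2, 163 and 85.2. In all 3 genes both *Ehmt2fl/fl* sections lay above both *Ehmt2+/+* sections. *Ctsz*, a carboxypeptidase, followed with 397, 248, 496 and 432, whereas *Ctsa*, which protects lysosomal sialidase and galactosidase, overlapped with 107, 67.7, 150 and 99.1. Among the hydrolases and lumen proteins, *Psap*, the precursor of the saposins that help to break down sphingolipids, had 335, 289, 1027 and 674. *Grn*, the progranulin gene, had 329, 258, 386 and 329. *Npc2*, which carries cholesterol out of the lumen, had a mean of 56.7 in *Ehmt2+/+* and 116 in *Ehmt2fl/fl*, and 25.6, 18.2, 114 and 65.9 in plain CPM. In *Psap*, *Npc2* and *Grn* the *Ehmt2fl/fl* sections again lay above the *Ehmt2+/+* sections, for *Grn* only just. In plain CPM these genes also lay higher in both *Ehmt2fl/fl* sections, and so did *Ctsa* (37.5, 30.8, 116 and 77.2), while on the TMM scale *Ctsz*, *Grn* and *Npc2* had negative log2 fold changes (−0.65, −0.82 and −0.15). *Hexa*, *Gaa*, *Lipa*, *Npc1* and *Mcoln1* lay higher in both *Ehmt2fl/fl* sections too, with 22.7, 24.1, 44.6 and 30.4 for *Hexa* and 45.9, 41.7, 63.4 and 49.3 for *Gaa*. On the TMM scale *Hexa*, *Gaa*, *Npc1* and *Mcoln1* were negative (−0.32, −0.69, −0.24 and −0.76), while *Lipa* was positive at 0.51. Of the proton pump subunits, *Atp6v1a* was higher in both *Ehmt2fl/fl* sections with 122, 125, 216 and 186, but negative on the TMM scale (−0.32). *Atp6v0d1* overlapped with 140, 132, 132 and 107, and *Atp6v1h* was lower with 33.5, 32.2, 25.5 and 27.5, though higher in plain CPM. The membrane protein *Lamp1* had 390, 124, 187 and 137 and its partner *Lamp2* had 74.9, 39.5, 55.4 and 32.2, with the first section above the other 3. *Cd63*, a tetraspanin of late endosomes, was lower in both *Ehmt2fl/fl* sections, with 360, 246, 155 and 106, but overlapped in plain CPM.

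Among the autophagy genes the LC3 and GABARAP proteins, which coat the growing autophagosome and bind cargo receptors, had lower non-enzyme CPM in *Ehmt2fl/fl*, apart from *Gabarap*, but not lower plain CPM. *Map1lc3a* had 172, 150, 83.2 and 72.9 non-enzyme CPM and *Map1lc3b* had 248, 121, 79.1 and 97.8. *Gabarapl1* had 74.5, 54.8, 36.3 and 33.3 and *Gabarapl2* had 217, 241, 210 and 189. In these 4 both *Ehmt2fl/fl* sections lay below both *Ehmt2+/+* sections, and *Gabarap* overlapped with 1372, 1464, 1427 and 1212. *Ulk1*, the kinase that starts autophagy, had 145, 140, 64.5 and 76.0, and *Becn1*, a part of the lipid kinase complex that follows, had 186, 193, 136 and 119, again lower in both *Ehmt2fl/fl* sections. *Sqstm1* (p62), the receptor that links ubiquitylated cargo to LC3, had 2371, 2715, 1997 and 1839, with a narrow gap between the groups. *Atg7*, *Atg16l1* and *Atg9a*, which serve LC3 conjugation and membrane supply, were higher in both *Ehmt2fl/fl* sections (38.2, 42.5, 64.9 and 56.6 for *Atg7*), so the autophagy genes did not all lie on one side, although these 3 were negative on the TMM scale (−0.41, −0.29 and −0.68). In plain CPM *Gabarap*, *Gabarapl2*, *Becn1* and *Sqstm1* (827, 1237, 1542 and 1433) were higher in both *Ehmt2fl/fl* sections, and *Map1lc3a*, *Map1lc3b*, *Gabarapl1* and *Ulk1* overlapped.

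How many members separated the genotypes depended on the scale. In non-enzyme CPM 20 of 47 members lay higher in both *Ehmt2fl/fl* sections than in both *Ehmt2+/+* sections, 10 lay lower and 17 overlapped, where 45.8% and 6.72% of 20190 genes lay higher and lower. In plain CPM 37 members lay higher and 1 lower, against 91.5% and 0.703% of the same genes. After TMM scaling, which sets the bulk of genes equal, 2 lay higher and 16 lower, against 20.4% and 17.2% of 20053 genes. *Ctsl* was the one member that was lower in both *Ehmt2fl/fl* sections in CPM, with 4503, 5402, 2400 and 2233 CPM, as well as in non-enzyme CPM. With 2 sections against 2, an exact two-sided permutation test cannot give a p below 0.333, and that is its value for each member without overlap.

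In the test across all genes (edgeR quasi-likelihood on section sums, TMM scaling, Benjamini-Hochberg adjustment) no member was called, where 0.110% of 20053 genes were, 0.0549% higher and 0.0549% lower. At an unadjusted p under 0.05, 6 members were lower and 0 higher, as were 982 and 77 of all genes. The log2 fold changes of *Ehmt2fl/fl* against *Ehmt2+/+* had a median of −0.84 over the 47 members, 0.25 over all genes and 0.81 over olfactory receptor genes, and 41 members were negative. The 5 lowest, none of them called, were *Ctsl* at −3.12 (SE 1.77, adjusted p = 0.863), *Cd63* at −2.34, *Map1lc3b* at −2.32, *Map1lc3a* at −2.12 and *Ulk1* at −2.09. The 5 highest, not called either, were *Ctss* at 1.86 (SE 1.07, adjusted p = 0.863), *Lipa* at 0.51, *Ctsc* at 0.46, *Ctsh* at 0.43 and *Psap* at 0.39. *Ctsb* was at −0.86 (SE 1.22) and *Ctsd* at −1.06 (SE 1.13). The signs of most members changed with the scaling. With plain library sizes 42 members were positive and *Ctsb* was at 1.33. That setting called 7 members higher (*Ctss*, *Ctsc*, *Ctsz*, *Lgmn*, *Psap*, *Npc2* and *Atp6v1a*) among 388 genes of 20053. DESeq2 called 7 lower (*Ctsl*, *Cd63*, *Lamp1*, *Map1lc3a*, *Map1lc3b*, *Ulk1* and *Vmp1*) among 464 genes. Without *Ehmt2+/+* replicate 1, 23 members were positive, with a median of −0.022 against 0.038 over all genes. Leaving out *Ehmt2+/+* replicate 2 gave 2 positive members and a median of −1.53, against 0.50 over all genes. *Ctsl* kept its sign in each of the 15 settings run, between −3.82 and −1.10, and so did *Ctss*, between 1.09 and 3.77.

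Marker genes of other cell types differed between the sections as well. The 12 macrophage markers, all detected in all sections, summed to 234, 372, 1236 and 1056 non-enzyme CPM. The 8 fibroblast markers summed to 1202, 1222, 2647 and 2491 and the 10 lymphoid markers to 29.2, 221, 322 and 339. The 7 neutrophil markers came to 11.4, 99.6, 187 and 191 and the 6 fat markers to 121, 280, 454 and 575. In each of these lists both *Ehmt2fl/fl* sections were higher, as they were for 45.8% of 20190 genes on this scale. The 99th percentile of the olfactory receptor genes was 2.14, 24.1, 25.9 and 34.1 in this unit. Per gene, the lymphoid and neutrophil sums lay near or below that level, so they give little reading of those cells. The 6 duct markers summed to 653, 760, 565 and 543, with both *Ehmt2fl/fl* sections lower, and the 6 islet markers to 2860, 1443, 8224 and 1023, with overlap. Their part in the levels of *Ctss*, *Ctsc*, *Lgmn* or *Psap* was not tested, and more cells of a type or more RNA per cell cannot be told apart in these sums. Spots with 40 to 60% of their UMIs from digestive enzymes, a range chosen after seeing the data, numbered 1034, 4743, 360 and 348. In these spots the log2 fold change of *Ctsl* was −1.24 and that of *Ctss* 1.09. No member was called by edgeR, where 18 genes of 14265 were called higher and 15 lower. At an unadjusted p under 0.05, 1 member was higher and 4 were lower, as were 91 and 362 of these genes.

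The ratio of *Ctsb* to *Ctsl* is free of the choice of scale, since both counts come from the same spots. *Ctsb* had 17132, 2110, 6828 and 5040 UMIs and *Ctsl* had 197148, 42380, 15948 and 17730. *Ctsb* made up 8.00% of the UMIs of both genes in *Ehmt2+/+* replicate 1 (95% Clopper-Pearson interval 7.88 to 8.11%) and 4.74% in replicate 2 (4.55 to 4.94%). The share was 30.0% in *Ehmt2fl/fl* replicate 1 (29.4 to 30.6%) and 22.1% in replicate 2 (21.6 to 22.7%). These intervals cover counting error only, and the share is one of probe counts and not of transcripts. Both *Ehmt2fl/fl* sections were high. The mean log2 ratio of *Ctsb* to *Ctsl* was −3.93 ± 0.568 in *Ehmt2+/+* and −1.52 ± 0.418 in *Ehmt2fl/fl* (SD, n = 2), a 5.30-fold difference in the ratio (exact two-sided permutation test, p = 0.333, the smallest that 2 against 2 sections allow).

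Within spot classes the gap had the same direction but another size. Among the enzyme-rich spots of each section (the upper of 3 equal parts by share of enzyme UMIs) *Ctsb* made up 7.95%, 4.61%, 21.4% and 16.7% of both genes, and among the enzyme-poor spots (the lowest part) 8.13%, 5.45%, 41.7% and 33.2%. The share was thus nearly level between enzyme-rich and enzyme-poor spots in the *Ehmt2+/+* sections, while in both *Ehmt2fl/fl* sections it was far higher in enzyme-poor spots. The fold difference between the genotypes was 3.61 in the enzyme-rich and 8.33 in the enzyme-poor spots, and these classes do not hold like enzyme shares in the 2 genotypes. In spots of 40 to 60% enzyme UMIs, whose enzyme shares of 57.0, 53.3, 45.0 and 45.3% still differed between the genotypes, *Ctsb* made up 8.41%, 4.41%, 15.1% and 11.0%, a 2.28-fold difference in the ratio, with the *Ehmt2fl/fl* sections still above both *Ehmt2+/+* sections.

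**Figure D2:**
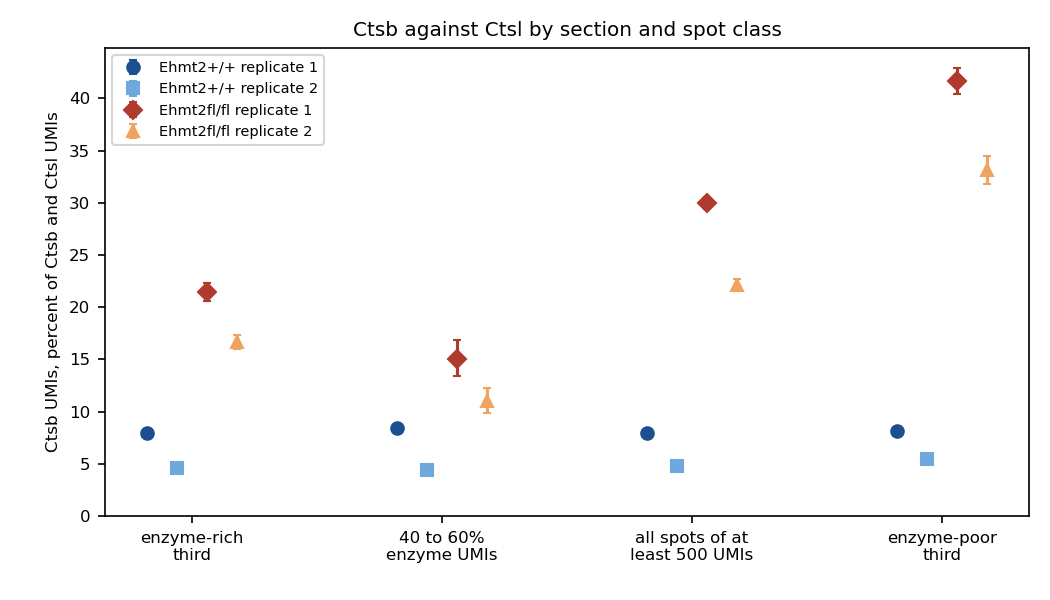
*Ctsb* UMIs as a percentage of the UMIs of *Ctsb* and *Ctsl* together, by spot class (x axis) and section (marker), with 95% Clopper-Pearson intervals as bars. The *Ehmt2fl/fl* sections lie above the *Ehmt2+/+* sections in each class, by the least in the spots of 40 to 60% enzyme UMIs.

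The second comparison asked how the genes differed within each section between spots poor and rich in digestive enzyme UMIs. Fewer acinar cells and less enzyme RNA per acinar cell cannot be told apart in this share. Each section was split into 3 equal parts by the share of enzyme UMIs per spot, which came to 59.3, 40.3, 9.55 and 7.11% in the enzyme-poor and 67.9, 62.5, 34.6 and 34.1% in the enzyme-rich part, so the contrast was narrow in *Ehmt2+/+* replicate 1 and wide in the *Ehmt2fl/fl* sections. On the TMM scale, enzyme-poor spots had lower levels of much of the autophagy list. In the fit with the section as a block, 14 of 47 members fell and 1 rose, where 14.3% of 19899 genes fell and 3.27% rose. The median log2 fold change of enzyme-poor against enzyme-rich spots was −0.33 over members, 0.016 over all genes and 0.25 over olfactory receptor genes. Of the 5 LC3 and GABARAP genes 4 fell (*Map1lc3a*, *Map1lc3b*, *Gabarapl1* and *Gabarapl2*), of the 10 genes of autophagosome formation 4 fell (*Ulk1*, *Becn1*, *Vmp1* and *Wipi2*), and of the 6 lysosomal membrane genes 4 fell (*Cd63*, *Lamp1*, *Lamp2* and *Scarb2*). *Sqstm1* and *Tfe3* completed the 14. In non-enzyme CPM *Map1lc3a*, *Map1lc3b*, *Gabarapl1*, *Gabarapl2*, *Ulk1* and *Becn1* were lower in enzyme-poor spots in all 4 sections. *Cd63*, *Lamp1*, *Lamp2*, *Scarb2*, *Sqstm1*, *Tfe3*, *Vmp1* and *Wipi2* were higher there in at least 1 section. Of the genes of autophagosome formation not called, *Atg5* and *Atg12* were higher there in all 4 sections. With plain library sizes 28 of 47 members were positive. None of the 9 hydrolases and lumen proteins and none of the 4 proton pump subunits passed the test in either direction.

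*Sqstm1*, the cargo receptor, fell the most. On the TMM scale its log2 ratio of enzyme-poor to enzyme-rich spots was −0.19, −1.22, −1.66 and −2.10 in the 4 sections, with a fit of −1.29 (SE 0.33, adjusted p = 0.00579), so it was near level in *Ehmt2+/+* replicate 1 and low in the other sections. *Sqstm1* went from 2249, 3148, 2920 and 2812 non-enzyme CPM in enzyme-rich spots to 2598, 2129, 1130 and 870 in enzyme-poor spots, where the first section had the opposite sign. *Map1lc3a* had log2 ratios of −0.57, −1.23, −1.48 and −1.34 and a fit of −1.12 (SE 0.17, adjusted p = 2.60e-05). *Ulk1* had −0.57, −1.48, −0.92 and −0.89 and a fit of −0.94 (SE 0.16, adjusted p = 1.10e-04). All 4 sections were negative for both genes. *Becn1* followed with a fit of −0.86 (SE 0.16, adjusted p = 3.79e-04) and *Cd63* with −0.81 (SE 0.18, adjusted p = 0.00193). These 4 (*Map1lc3a*, *Ulk1*, *Becn1* and *Cd63*) were the members called lower under each of the 9 settings run.

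The cathepsins spread widely. *Ctsl* had log2 ratios of −0.55, −1.37, −1.41 and −1.78, negative in each section, with a fit of −1.28 (SE 0.48, adjusted p = 0.0621), which missed the threshold. *Ctsl* went from 13396, 14140, 4403 and 4262 non-enzyme CPM in enzyme-rich spots to 12037, 8616, 2026 and 1640 in enzyme-poor spots, so the sections labelled *Ehmt2fl/fl* were below the sections labelled *Ehmt2+/+* in both classes. *Ctss* was the one member that rose, with log2 ratios of 0.84, 0.48, 0.54 and 0.29 and a fit of 0.54 (SE 0.18, adjusted p = 0.0308). It had 141, 134, 944 and 653 non-enzyme CPM in enzyme-poor spots, above its level in the enzyme-rich spots of the same section in all 4. *Ctsb* was at −0.52 (SE 0.24, adjusted p = 0.139) and *Ctsd* at −0.51 (SE 0.21, adjusted p = 0.0837), neither called. DESeq2 called *Ctsl* (−1.35), *Ctsb* (−0.60) and *Ctsd* (−0.59) lower. *Ctsl* was also called lower by edgeR with plain library sizes, without the count filter, between the lowest and highest of 4 parts and without *Ehmt2+/+* replicate 1, and *Ctsd* without *Ehmt2+/+* replicate 1. Among the transcription factors, *Tfe3* fell with −0.54 (SE 0.19, adjusted p = 0.0486), a call that held without the count filter and in none of the other 7 settings, while *Tfeb* was at 0.36 (SE 0.18, adjusted p = 0.168). Next to *Ctss* and *Tfeb* at the upper end, and not called, were *Ctsc* at 0.37, *Npc1* at 0.28 and *Ctsh* at 0.14. Enzyme-poor spots also held more macrophage marker UMIs, 3.27, 5.02, 15.7 and 13.7 per 10000 non-enzyme UMIs against 1.90, 2.51, 8.70 and 7.93 in enzyme-rich spots, and fewer UMIs in all, with a median of 3094, 699, 861 and 918 against 8912, 1116, 1141 and 1401 per spot. Their part in these differences was not tested.

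**Figure D3:**
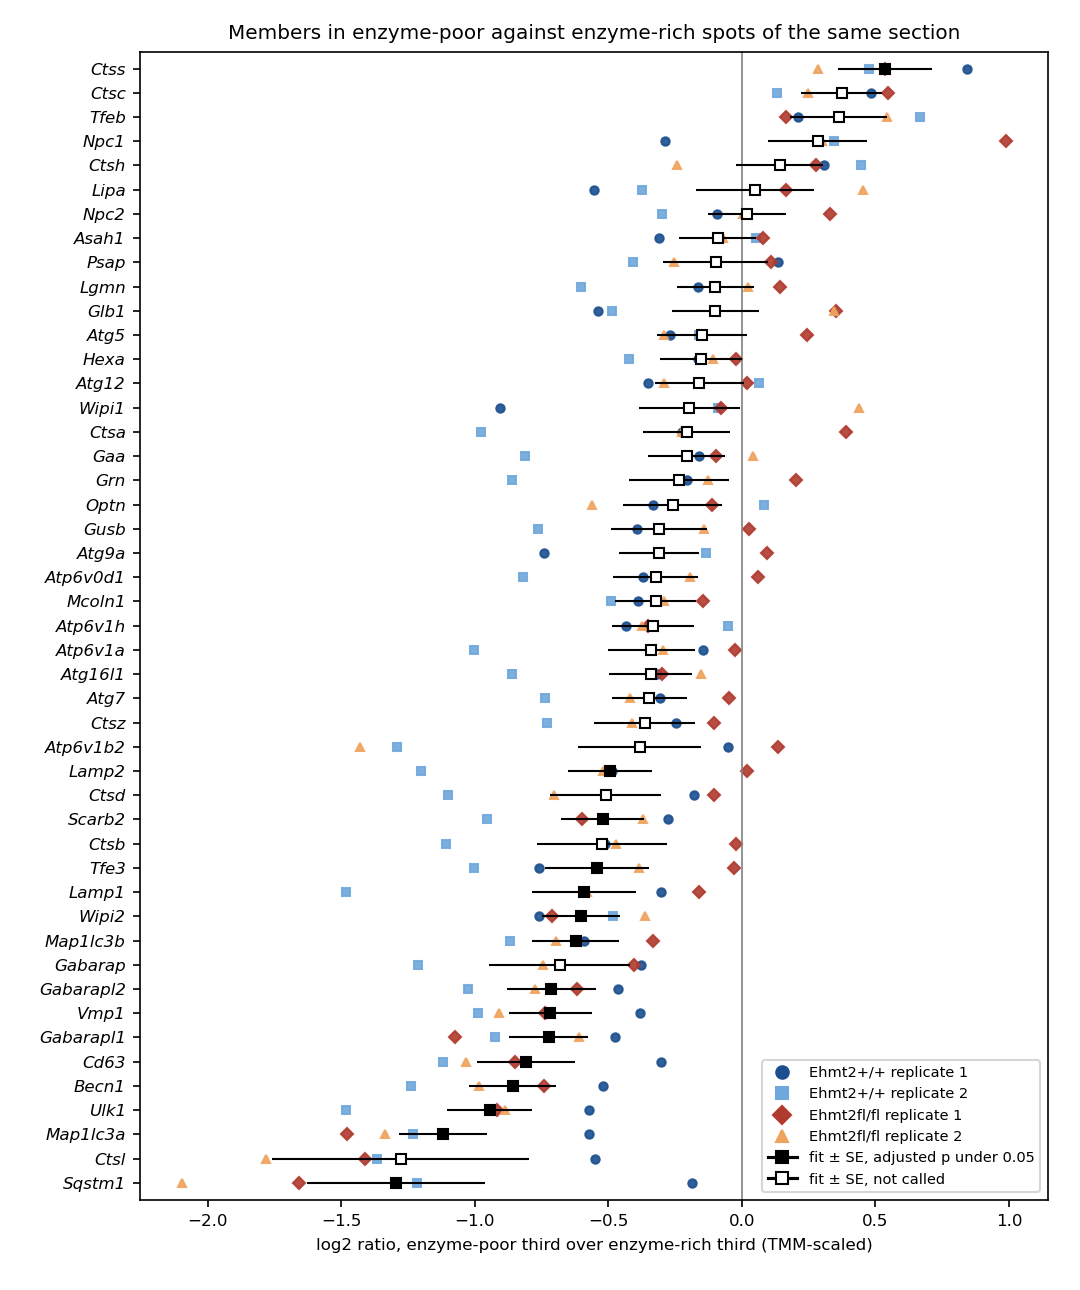
Log2 ratio of each member between enzyme-poor and enzyme-rich spots (x axis, TMM-scaled), with coloured markers for the sections and black squares with bars for the fit and its standard error. Filled squares passed an adjusted p of 0.05. *Sqstm1*, *Ctsl* and *Map1lc3a* lie lowest and *Ctss* lies highest.

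The count of members that fell was 6 with plain library sizes (*Becn1*, *Cd63*, *Ctsl*, *Map1lc3a*, *Sqstm1* and *Ulk1*), which also called 6 higher (*Ctss*, *Ctsc*, *Ctsh*, *Npc1*, *Npc2* and *Tfeb*), where 6779 of 19899 genes were called higher and 531 lower. It was 18 with DESeq2, which added *Ctsb*, *Ctsd*, *Ctsl*, *Ctsz* and *Gabarap* and lost *Tfe3*, among 3161 genes called lower. Without *Ehmt2fl/fl* replicate 2 it was 8, among 1355 genes of 19528. With each section left out in turn, *Lamp1* and *Scarb2* kept their calls only without *Ehmt2+/+* replicate 1, and *Lamp2* only without *Ehmt2fl/fl* replicate 1. The call of *Ctss* was lost when any one section was left out, with adjusted p from 0.0599 without *Ehmt2+/+* replicate 2 to 0.106 without *Ehmt2fl/fl* replicate 1, while that of *Sqstm1* was lost without *Ehmt2fl/fl* replicate 1 (adjusted p = 0.155) or 2 (0.153). A further 92 lysosome and autophagy genes outside the list were read the same way, with 18 of 65 lysosome genes and 11 of 27 autophagy genes lower and 0 higher. Lowest among them were *Calcoco1*, a receptor for the autophagy of endoplasmic reticulum, at −0.94 (SE 0.16, adjusted p = 9.02e-05), *Atg13*, a partner of *Ulk1*, at −0.92 (SE 0.15, adjusted p = 5.23e-05), and *Laptm4b*, a lysosomal membrane protein, at −0.88 (SE 0.18, adjusted p = 8.22e-04).

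Whether the difference between enzyme-poor and enzyme-rich spots itself differed between the genotypes was tested as an interaction. No member was called by edgeR, with 3 higher and 0 lower at an unadjusted p under 0.05 (493 and 852 of all genes), where 0.392% of 19899 genes were called, 0.0754% higher and 0.317% lower. *Sqstm1* had the lowest value, −1.18 (SE 0.73, adjusted p = 0.858), which says that it was lower in the enzyme-poor spots by more in *Ehmt2fl/fl* than in *Ehmt2+/+*. This passed the threshold with plain library sizes (−1.36, adjusted p = 0.0487), where 243 genes of 19899 were called lower. It also did with DESeq2 (−1.15, adjusted p = 0.0473), where 46 were. The value was −1.69 without *Ehmt2+/+* replicate 2 and −0.60 without *Ehmt2+/+* replicate 1. The enzyme shares of the poor and rich parts were 59.3 against 67.9% and 40.3 against 62.5% in the *Ehmt2+/+* sections. They were 9.55 against 34.6% and 7.11 against 34.1% in the *Ehmt2fl/fl* sections. Genotype and the width of this contrast cannot be told apart in the interaction. The others low in rank were *Ctsl* at −0.64, *Map1lc3a* at −0.54, *Ctsh* at −0.34 and *Atp6v1b2* at −0.31. Highest were *Glb1*, the lysosomal beta-galactosidase, at 0.87 (SE 0.29, adjusted p = 0.272), *Wipi1*, which binds the early autophagic membrane, at 0.86, *Lipa*, the lysosomal acid lipase, at 0.80, *Npc1*, the membrane cholesterol exporter, at 0.71, and *Tfe3* at 0.64. *Ctsb* was at 0.56 and *Ctsd* at 0.22, and 35 of 47 members were positive. Without *Ehmt2+/+* replicate 2, *Wipi1* was at 1.14.

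Spots rich in macrophage markers (the top 10% of each section by those 12 genes) were then set against all other spots of the section. No member was called, with 2 higher and 8 lower at an unadjusted p under 0.05 (338 and 1255 of all genes), and few genes were at all (0.0953% of 19933, 0.0301% higher and 0.0652% lower). The highest values were those of the proteases *Ctss*, *Ctsc* and *Lgmn*, while the median over the 9 values of the cathepsins and *Lgmn* was 0.034. *Ctss* had log2 ratios of 0.60, 0.36, 0.51 and 0.76, positive in each section, and a fit of 0.58 (SE 0.16, adjusted p = 0.136). *Ctsc* followed with 0.057, 0.35, 0.74 and 0.45 and a fit of 0.41 (SE 0.17, adjusted p = 0.503), then *Lgmn* at 0.34 (SE 0.19, adjusted p = 0.662), *Npc2* at 0.20 and *Psap* at 0.13. At the low end were *Vmp1*, an autophagosome protein induced in pancreatitis, at −0.59 (SE 0.20, adjusted p = 0.313), *Map1lc3a* at −0.57, *Lamp2* at −0.50, *Wipi2* at −0.47 and *Ulk1* at −0.45. *Ctsb*, *Ctsd* and *Ctsl* were at 0.034, −0.058 and −0.37. Without *Ehmt2+/+* replicate 1, *Ctss* (0.59, adjusted p = 8.52e-05), *Ctsc* (0.58) and *Lgmn* (0.50) were called higher and *Sqstm1* lower, among 76 and 60 genes of 19841. DESeq2 called *Ctss* and *Ctsc* higher and *Ctsl* lower, among 42 and 30 genes of 19933. Plain library sizes called *Ctss*, *Ctsc*, *Lgmn*, *Npc2* and *Psap* higher, among 179 genes. In each section 1 UMI of a macrophage gene could place a spot in this class, so it is a range of a score and not a cell type.

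Spots rich in fibroblast markers (top 10%) held no called member either, with 0 higher and 6 lower at an unadjusted p under 0.05 (353 and 1020 of all genes) and 0.136% of 19908 genes called, 0.126% higher and 0.0100% lower. The highest values were *Tfeb* at 0.32 (SE 0.26, adjusted p = 0.839), *Ctss* at 0.12, *Atg7* at 0.093, *Ctsc* at 0.051 and *Ctsh* at 0.049. The lowest were *Atp6v1b2*, a pump subunit near the olfactory level, at −0.89 (SE 0.34, adjusted p = 0.541), *Atg5* at −0.81, *Map1lc3a* at −0.67 (SE 0.21, adjusted p = 0.265), *Optn*, another cargo receptor, at −0.61, and *Tfe3* at −0.47. *Ctsb* was at −0.24, *Ctsd* at −0.18 and *Ctsl* at −0.44. Without *Ehmt2+/+* replicate 1, *Sqstm1* and *Ctsl* were called lower, among 49 genes of 19836. This class is a range of a score too, since 1 UMI of a fibroblast gene could place a spot in it in both *Ehmt2+/+* sections.

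Spots rich in islet hormones (top 2%, between 123 and 158 per section) had lower values for most members on the TMM scale. None was called, with 0 higher and 11 lower at an unadjusted p under 0.05 (366 and 1473 of all genes), where 0.894% of 19913 genes were called (0.783% higher and 0.110% lower), and 43 of 47 were negative, against 25 with plain library sizes and 35 with DESeq2. All 9 values of the cathepsins and *Lgmn* were negative, with a median of −0.87 against −0.37 over all genes. *Ctss* had log2 ratios of −1.40, −1.43, −1.38 and −0.63 and a fit of −1.17 (SE 0.38, adjusted p = 0.166). Also at the low end were *Wipi1* at −1.75 (SE 0.65, adjusted p = 0.301), *Atg7* at −1.34, *Lipa* at −1.32 and *Atg5* at −1.14, and *Ctsl*, *Ctsd* and *Ctsb* were at −0.99, −0.87 and −0.76. The highest were *Gaa*, the acid glucosidase, at 0.41 (SE 0.40, adjusted p = 0.780), *Hexa*, a hexosaminidase subunit, at 0.41, *Atp6v1b2* at 0.24, *Atp6v0d1* at 0.082 and *Psap* at −0.15. In the top 1% of spots 5 members were called lower (*Ctsd*, *Ctsl*, *Ctss*, *Ctsz* and *Grn*), among 206 genes of 19841. Without *Ehmt2+/+* replicate 1 *Ctss* alone was (−1.11), among 24 genes of 19812. Without *Ehmt2fl/fl* replicate 2 *Ctsb*, *Ctsd*, *Ctsl* and *Ctss* were, among 147 genes of 19655. Plain library sizes called *Ctsl* and *Ctss* lower, among 55 genes of 19913, and DESeq2 called *Ctsl* lower, among 13.

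**Figure D4:**
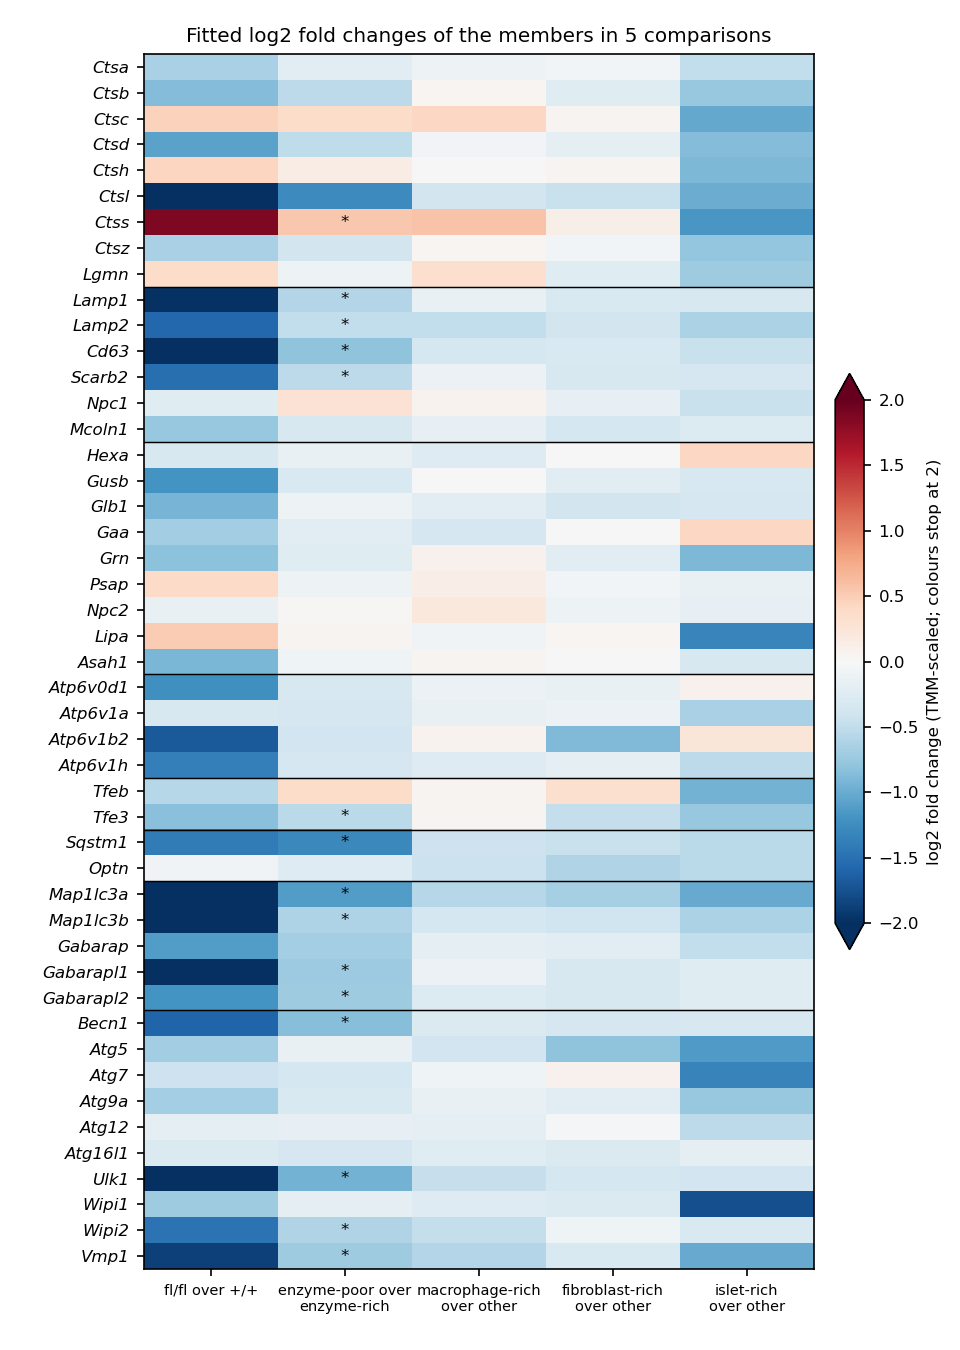
Fitted log2 fold changes (TMM-scaled, colours stop at 2 in either direction) of the 47 members in rows, grouped by role, for the genotype difference and the 4 contrasts between spot classes in columns. Asterisks mark an adjusted p under 0.05, which only the enzyme-poor against enzyme-rich column holds. *Ctss* is red in the first 4 columns and blue in the islet column.

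Of the 14 members that fell in enzyme-poor spots in the main fit, 12 had a window, and *Lamp1* was the one that held CACGTG. Of the other 25 members with a window 11 held it, and 8.09% of 27025 genes with a window did. The split moves with the setting, since *Ctsl*, which held CACGTG, missed the threshold in the main fit but was called lower with plain library sizes and with DESeq2. No difference in these shares was tested.

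In the remaining contrasts the 92 further lysosome and autophagy genes had no call by edgeR. For the genotype difference low values, named after they were seen, included *Rb1cc1*, a *Ulk1* partner, at −2.64 (SE 0.70, adjusted p = 0.0962), and *Atp6v1f*, a pump subunit, at −2.25 (SE 1.06, adjusted p = 0.863). The highest were *Tfec* at 0.87 (SE 0.91, adjusted p = 0.863), *Ctse* at 0.77 (SE 0.75, adjusted p = 0.863) and *Cd68*, a macrophage lysosomal protein, at 0.56 (SE 0.94, adjusted p = 0.863). The medians were −0.82 over the 65 lysosome and −0.85 over the 27 autophagy genes, close to that of the members. *Cd68* also had the highest value of the 92 in macrophage-rich spots, 0.54 (SE 0.17, adjusted p = 0.277), not called.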

How the data were processed

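The data are spatial transcriptomes of 4 paraffin sections of pancreas, each treated as a separate mouse. The authors hybridized mouse probe sets with the CytAssist Visium workflow and counted with Space Ranger 2.0.1 on mm10, and deposited raw UMI counts for each gene in each spot. Of 32589 features, 304 marked as deprecated probes were left out, which held 0.477 to 0.803% of the UMIs. Tissue marks carry positions without barcodes and were not used, so spots with at least 500 UMIs were taken, 88.4 to 98.8% of each section's UMIs, or 6643747 to 43784930 UMIs per section. Spots are not replicates, and counts were summed per section, or per section and spot class.

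The summed counts went into edgeR 4.0.16 under R 4.3.3, as a quasi-likelihood fit after TMM scaling, keeping genes that pass filterByExpr (minimum count 10) and calling those with a Benjamini-Hochberg adjusted p under 0.05, with genotype alone, with section as a block for spot classes, or with a genotype by enzyme term. All 47 members passed the filter in each comparison, p-values were adjusted over all genes tested, and the common dispersion of the genotype fit was 0.351. TMM factors were 0.288, 0.957, 1.71 and 2.13. The scripts were tested on simulated data with a smaller dispersion than that of the genotype fit. That test does not show what the genotype fit could recover at its own dispersion. DESeq2 1.42.0 was the alternative tool. Classes were 3 equal parts by the share of 37 digestive enzyme genes, the top 10% by macrophage or fibroblast markers and the top 2% by islet hormones per section. Shares have 95% Clopper-Pearson intervals, and ratios were compared by exact two-sided permutation tests. Other work was done in Python 3.11.15.

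By rule the text names *Ctsb*, *Ctsl* and *Ctsd*, per comparison the 5 highest and 5 lowest called members (over all members where fewer were called), some members without overlap between genotypes, and the 3 highest and 3 lowest called further genes. Other genes were named after their values were seen. The members, the further lists and the tests were chosen with earlier results of these data known. Alternatives were plain library sizes, DESeq2, no filter, other spot limits and class cuts, enzyme genes left out, lymphoid-rich spots left out and each section left out. Promoter windows are those of RefSeq (GRCm38.p6).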

Additional observations from a re-analysis of the deposited data

How the results depend on the processing

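The counts of called members and the ratio of *Ctsb* to *Ctsl* were recomputed under the alternatives. Of these, 90 stayed within 1.5 times of the reported count or, for the ratio, kept the same direction, and 26 did not. A count of 0 that stayed 0 was among the 90, and only the comparison of enzyme-poor with enzyme-rich spots had called members in the main fit. There 6 counts stayed and 2 moved with all sections, and 4 stayed and 4 moved with a section left out. The ratio was judged by its direction alone, without a threshold. Of the values of named genes 38 changed sign, none of them called. With plain library sizes in place of TMM the called members were 7 higher for genotype, 6 higher and 6 lower in enzyme-poor spots, 5 higher in macrophage-rich spots, 2 lower in islet-rich spots and 1 lower in the interaction. With DESeq2 they were 7 lower for genotype, 1 higher and 18 lower in enzyme-poor spots, 2 higher and 1 lower in macrophage-rich spots, 1 lower in islet-rich spots and 1 lower in the interaction. In the top 1% of islet spots 5 were lower. With each section left out, the counts ranged from 0 to 2 higher and 0 to 39 lower for genotype, 0 to 1 higher and 8 to 15 lower in enzyme-poor spots, 0 to 3 higher and 0 to 1 lower in macrophage-rich spots, 0 to 2 lower in fibroblast-rich spots, 0 to 4 lower in islet-rich spots, and 0 to 1 higher and 0 to 1 lower in the interaction. Where this left a group with 1 section, that section was assumed to vary like the other genotype. The 39 came from leaving out *Ehmt2+/+* replicate 2, where most of all genes tested were called too, higher or lower. With 1 *Ehmt2+/+* section in that fit, the 39 cannot be read as a fall particular to these members. The cause of the differences between settings was not tested.

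Signs turned for genotype with plain library sizes (*Ctsb* 1.33, *Ctsd* 1.08), with DESeq2 (*Ctsc* −0.020, *Ctsh* −0.00052, *Psap* −0.076) and in the 40 to 60% spots (*Ctsc* −0.30, *Ctsh* −0.0018). They turned in macrophage-rich spots for *Ctsb* in the top 5% (−0.049) and for *Ctsd* with library sizes (0.14) and DESeq2 (0.081). In fibroblast-rich spots they turned for *Ctsd* with library sizes (0.047) and in the top 5% for *Ctss* (−0.18) and *Atg7* (−0.28), and in islet-rich spots for *Psap* with library sizes (0.28) and DESeq2 (0.14) and for *Atp6v0d1* in the top 1% (−0.14). With a section left out, ranges that crossed 0 were, for genotype, *Ctsb* −1.75 to 0.70, *Ctsd* −1.91 to 0.33, *Ctsc* −0.33 to 1.62, *Ctsh* −0.18 to 1.15 and *Psap* −0.34 to 1.39. In macrophage-rich spots they were *Ctsb* −0.12 to 0.26 and *Ctsd* −0.16 to 0.13, and in fibroblast-rich spots *Atg7* −0.0068 to 0.18, *Ctsc* −0.020 to 0.17 and *Ctsh* −0.24 to 0.27. In islet-rich spots they were *Atp6v0d1* −0.16 to 0.34 and *Psap* −0.22 to 0.055, and in the interaction *Ctsd* −0.22 to 0.76 and *Atp6v1b2* −1.02 to 0.78.

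The enzyme-rich spots, the enzyme-poor spots and the 40 to 60% range in the genotype comparison, and that range for the ratio, were chosen after seeing the data. No paired analysis was possible because the labels give no replicate numbers that tie sections across genotypes. With 2 sections per genotype, unequal depth within *Ehmt2+/+* and unlike enzyme shares, a missing call does not show that a gene did not differ.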

Other observations

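*Lamp1* and *Vmp1* stood apart in one section. *Lamp1* had 390, 124, 187 and 137 non-enzyme CPM and *Vmp1*, a membrane protein of autophagosome formation, had 160, 73.6, 86.6 and 65.3, so that for both the section labelled *Ehmt2+/+* replicate 1 was high and the other 3 lay close together. *Lipa*, the lysosomal acid lipase, showed the reverse, with 3.73, 12.9, 17.2 and 20.2, and so did *Optn* with 8.32, 21.3, 24.0 and 22.9. The 99th percentile of olfactory receptor genes in the same unit was 2.14, 24.1, 25.9 and 34.1, above the levels of *Lipa* and *Optn* in the last 3 sections. *Gusb*, the beta-glucuronidase gene often used as a reference, had 329, 217, 291 and 240.

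Of the 47 members, 38 in *Ehmt2+/+* replicate 2, 39 in *Ehmt2fl/fl* replicate 1 and 33 in *Ehmt2fl/fl* replicate 2 exceeded the 99th percentile of the olfactory receptor genes, and all 47 did in *Ehmt2+/+* replicate 1.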
